A study of Drosophila melanogaster with 2 samples.

Results

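Sites of the transcription factor Apterous (gene ap) were examined at 4 Drosophila melanogaster genes of cyclic AMP (cAMP) signalling that are known from learning mutants and their pathway: dnc, rut, Pka-C1 and Pka-R2. The study is a chromatin immunoprecipitation with sequencing (ChIP-seq) experiment in whole embryos aged 0 to 24 h of a strain that carries an ap-eGFP transgene, precipitated with an antibody to GFP. It holds 1 group of 2 biological replicates, 1 and 2, and both carry the transgene. Whole embryos mix all embryonic cell types, so a peak cannot be tied to a cell type, and no control precipitation was analysed here. The 4 genes were chosen by the number and position of these same peaks, so their counts and signals are given as a description, with no test. A peak was taken as belonging to a gene when its summit lay inside the gene or nearer to one of its transcript start sites than to those of any other protein-coding gene. In the conservative list of peaks that repeat between the replicates, 8 of 3184 peaks belonged to the 4 genes: 7 to dnc, 1 to Pka-C1, and none to rut or Pka-R2. By the same rule 2425 of 13968 protein-coding genes had a conservative peak, or 17.4%, against 2 of these 4. Among long genes the share was higher, 46.4% of genes 16 to 65 kb long and 55.4% of genes over 65 kb long, and the 4 genes ran from 17 kb (Pka-C1) to 167 kb (dnc).

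The cAMP pathway passes signals from G protein-coupled receptors into the cell. An adenylyl cyclase makes cAMP, a phosphodiesterase breaks it down, and cAMP frees the catalytic subunits of protein kinase A from their regulatory subunits so that they phosphorylate targets such as the factor CrebB. In the fly, rutabaga (rut) encodes a calcium and calmodulin dependent cyclase, dunce (dnc) a cAMP phosphodiesterase, Pka-C1 a catalytic subunit and Pka-R2 a type II regulatory subunit of the kinase. Mutants of dnc and rut were isolated for poor olfactory learning, and these proteins act in the mushroom body neurons of the brain. Apterous is a LIM homeodomain protein that specifies dorsal wing identity and sets the fate of some muscles and neurons.

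The reference sequence at 4 of the peaks is shown because these are the strongest peaks at 3 separate dnc start sites and the only Pka-C1 peak. Each is the plus strand of dm6 centred on the summit, from RefSeq release 6, and capitals mark TAAT on either strand, the short core that homeodomain proteins contact. At the strongest peak only 29 bases are shown, because it lies in a 5′ UTR, and these span chrX:3294957-3294985. The other 3 windows of 101 bases are chrX:3255690-3255790, chrX:3329027-3329127 and chr2L:9693102-9693202. None holds TAATTA, a sequence that LIM homeodomain proteins bind.
dnc, upstream of dnc-RE: aATTAtaagtgtctagttgtgcaccttaa
dnc, upstream of dnc-RC and others: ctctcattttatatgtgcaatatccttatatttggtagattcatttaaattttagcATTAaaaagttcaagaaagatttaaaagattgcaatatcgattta
dnc, upstream of dnc-RF: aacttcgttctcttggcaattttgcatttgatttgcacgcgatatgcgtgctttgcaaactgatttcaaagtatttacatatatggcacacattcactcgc
Pka-C1, intron: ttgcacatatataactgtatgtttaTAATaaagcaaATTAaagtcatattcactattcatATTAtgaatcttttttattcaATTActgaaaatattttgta

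The 7 conservative peaks of dnc were spread along a gene of 167 kb and past its end, and the 2 strongest sat just upstream of internal start sites. The gene (FBgn0000479) lies on the plus strand of X from 3176440 to 3343767, with 17 annotated transcripts from 9 start sites. The highest signal, 298, was at X 3294907 to 3295083, with the summit 310 bp upstream of the start of transcript dnc-RE. This base lies inside the gene, in a 5′ UTR exon of the longer transcripts dnc-RN and dnc-RP. It ranked 213 of 3184 conservative peaks. The signal there was 135 in replicate 1, against 164 in replicate 2, a mean of 149 ± 20.6 (SD, n = 2), and both replicates' own thresholded lists held the peak.

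The second peak, at X 3255592 to 3255887, had a signal of 189, rank 519, and lay in an intron 328 bp upstream of the start shared by dnc-RC, dnc-RD, dnc-RI, dnc-RJ, dnc-RN and dnc-RP. Replicate 1 gave 87.8 and replicate 2 gave 101 (94.6 ± 9.69, SD, n = 2), and both thresholded lists held it. At the start of dnc-RF 2 conservative peaks overlapped by 84 bp. Both summits lay in an intron of dnc and also inside the long non-coding RNA gene CR44886. The stronger, X 3328929 to 3329224, had a signal of 89.0 and its summit 330 bp upstream. The other, X 3329141 to 3329436, had a signal of 6.54, rank 3164 of 3184, and its summit 118 bp upstream, and both overlap the same peak of each replicate. Below, "peaks" counts the 2 separately and "sites" counts the pair once. Replicate 1 gave 40.7 and replicate 2 gave 45.1 (42.9 ± 3.11, SD, n = 2). Replicate 1's thresholded list held this site, while in replicate 2 its score was 743, under the 830 that the lists require. A score of 830 corresponds to an irreproducible discovery rate (IDR) of 0.01, which is low where 2 sets of reads place a peak at like ranks.

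The remaining 3 dnc peaks lay away from start sites. The one at X 3310836 to 3311131, signal 110.0, fell in an intron, 3195 bp before the start of dnc-RG, and its replicates were the farthest apart of the 4 genes' peaks, with 72.3 in replicate 1 and 42.5 in replicate 2 (57.4 ± 21.1, SD, n = 2). Only replicate 1's thresholded list held it, and its score in replicate 2 was 795, just under the limit. The peak at X 3205910 to 3206205, signal 81.4, was in the first long intron, 29618 bp downstream of the first start site and 15482 bp from the nearest dnc exon. It was in both thresholded lists, with 46.6 in replicate 1 and 39.7 in replicate 2 (43.2 ± 4.82, SD, n = 2). The last, at X 3351072 to 3351367, was intergenic, 7453 bp past the end of dnc and 21939 bp from the start of Myc, the growth-promoting bHLH factor gene, which was the next nearest protein-coding gene. It was the weakest site, at a pooled 57.0, and the replicates gave 31.4 (replicate 1) and 25.6 (replicate 2), a mean of 28.5 ± 4.09 (SD, n = 2). Neither replicate's thresholded list held it, nor did the less strict pooled list. This peak belongs to dnc only through the nearest protein-coding start site.

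**Figure D1:**
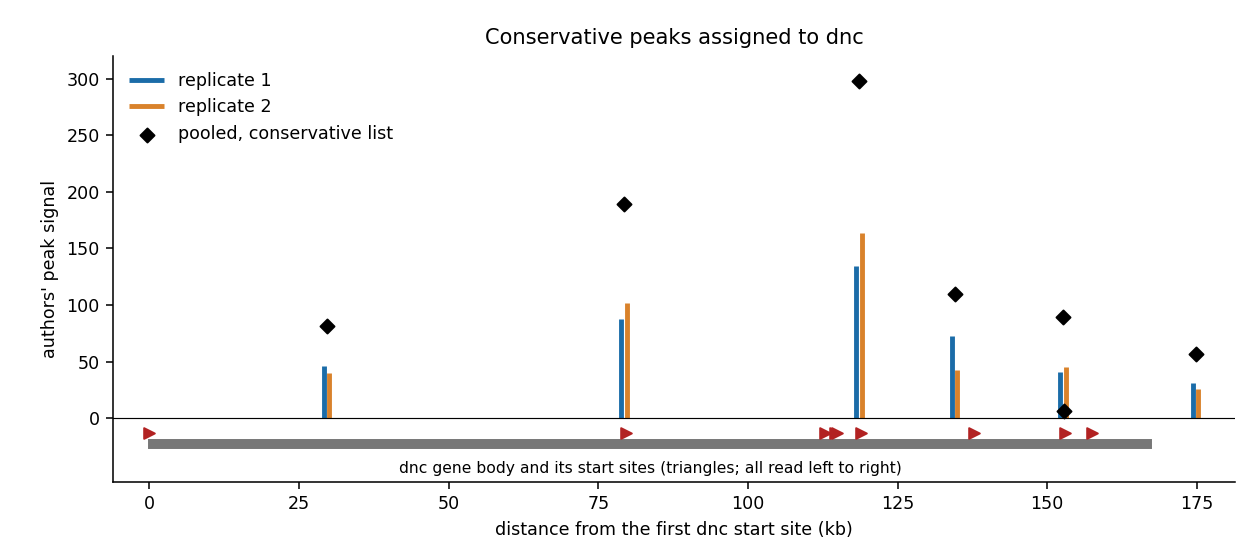
Authors' peak signal (vertical axis) of the conservative dnc peaks by distance from the first dnc start site in kb. Diamonds are the pooled values, bars are replicates 1 and 2 (drawn side by side, once for the 2 overlapping peaks near 153 kb), the grey bar is the gene and triangles are its 9 start sites. The tallest peaks, 298 and 189, stand at the start sites of dnc-RE and of dnc-RC and others, and the first start site at 0 kb has none.

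Across the 6 separate dnc sites the pooled signal ran from 57.0 to 298 with a median of 99.5, next to a median of 95.4 over all 3110 conservative sites when overlapping peaks are counted once. With each peak counted, the median was 89.0 over 7 dnc peaks, against 93.5 over all 3184 (quartiles 67.6 and 147), so which was higher depended on that choice. The 2 strongest stood in the upper part of the list, where 93.3% and 83.7% of conservative peaks were weaker. The others were near or under its middle, except the site 3195 bp upstream of dnc-RG, where 59.7% were weaker. Of the 7 separate sites of the 4 genes, 4 were higher in replicate 2 and 3 in replicate 1, and replicate 2 over replicate 1, as a log2 ratio, spanned -0.77 to 0.28. Over the 3134 conservative peaks with a ranked peak in both replicates this ratio was 0.03 ± 0.43 (SD across peaks), with 5th and 95th percentiles of -0.68 and 0.73. The widest gap, the -0.77 upstream of dnc-RG, lay below the 5th percentile, and the other 6 sites lay within this range. Of the 7 sites, 3 were thresholded in both replicates, 2 in replicate 1 alone and 2 in neither. Over all conservative peaks 48.1% were thresholded in both.

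The IDR of these peaks, from the pooled ranked list in which the conservative peaks were found, had the same order as their signals at the 6 separate dnc sites. It was 1e-05 upstream of dnc-RE, the lowest value the list holds, and 1.15e-05 upstream of dnc-RC and others. The sites upstream of dnc-RG, at dnc-RF and in the first long intron had 0.000296, 0.000734 and 0.000751, and the site past the end of the gene had 0.00647, the closest of them to the limit.

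Of the 9 dnc start sites 3 (33.3%) had a conservative summit within 500 bp, next to 10.5% of the 19630 start sites of protein-coding genes. All 3 were internal. At the first start site, used by dnc-RB, dnc-RS, dnc-RT and dnc-RU, the highest ranked peak within 500 bp reached 21.1 (replicate 1) and 12.7 (replicate 2). These ranked 12278 of 82646 and 42103 of 102850 peaks, and both signals were above the medians of those lists, 13.3 in replicate 1 and 11.3 in replicate 2. The pooled ranked list had a candidate there with the summit 25 bp upstream, signal 38.8, rank 9130 of 139724 and an IDR of 0.540, which did not pass. The start of dnc-RQ, 113 kb into the gene, had 19.6 in replicate 1 and 26 in replicate 2, both with the summit 213 to 215 bp upstream, and neither passed. At the start of dnc-RA only replicate 1 had a ranked peak, of 12.7, and at the start of dnc-RL only replicate 2 had one, of 10.2. No ranked peak of either replicate had its summit within 500 bp of the starts of dnc-RR and dnc-RG.

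**Figure D2:**
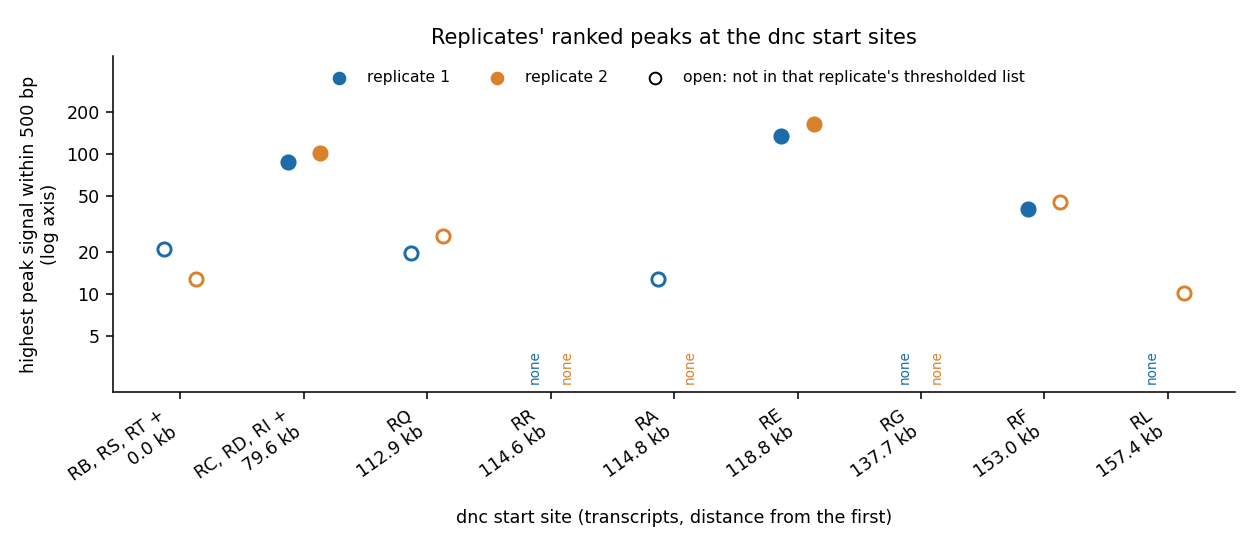
Highest signal (log axis) among each replicate's ranked peaks with the summit within 500 bp of each of the 9 dnc start sites, ordered along the gene; filled points are peaks of that replicate's thresholded list, open points are not, and "none" marks a replicate with no ranked peak there. Points at 3 internal start sites run from 40.7 to 164, all filled but that of replicate 2 at dnc-RF (45.1), and all points at other start sites are at 26 or lower.

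The main dnc peaks at the 3 start sites lay at similar distances. In the pooled list their summits were 310, 328 and 330 bp upstream of the 3 starts, while the weaker peak at dnc-RF had its summit 118 bp upstream. Replicate 1's own peaks put them at 298 bp (dnc-RE), 372 bp (dnc-RC and others) and 307 bp (dnc-RF) upstream, and replicate 2's ranked peaks at 313, 376 and 335 bp for the same 3. Most conservative peaks at promoters lay closer in: of 1041 summits at most 500 bp upstream of the nearest protein-coding start the median was 143 bp (quartiles 96 and 226 bp), and 16.2% were 300 bp or more upstream. That limit of 300 bp was chosen after the dnc values were seen. The median conservative peak was 296 bp wide.

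The 3 start sites with a conservative summit begin transcripts that differ in coding length. Those from the start of dnc-RC and others have coding sequences of 642 to 1070 codons, that of dnc-RE has 642 and that of dnc-RF 662. Transcripts from the first start site, with no conservative peak, have 715 to 1209 codons. The coding sequences of dnc-RQ and dnc-RR have 703 codons, that of dnc-RA 701, that of dnc-RG 814 and that of dnc-RL 521. The peak lists hold no measure of which of these transcripts the embryos made.

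dnc held 6 conservative summits inside it, and 14 of the 13968 protein-coding genes held more, up to 17. With overlapping peaks counted once in every gene, dnc held 5 and 23 genes held more. Of the 87 protein-coding genes of 100 kb or longer, 40 held none, the median was 1, and 2 held more than dnc, or 5 with overlapping peaks counted once. Per 10 kb the count was 0.359 summits. The 3 genes with the same number of summits and the nearest length were shep, mtgo and CG43658, of 122, 118 and 105 kb, with 6 each, which stayed at 6 with overlapping peaks counted once, against 5 in dnc. Their strongest peaks had signals of 148, 125 and 115, below the 298 of dnc, and 1, 1 and 0 of their 6 summits were within 500 bp of an own start site, against 4 in dnc (3 sites). These contrasts are description only, because dnc was chosen by the number and position of its peaks. The numbers of start sites of shep, mtgo and CG43658 were not compared with that of dnc. The 3 genes nearest in summits per 10 kb, among those 83.7 kb or longer, were ed (0.356), klar (0.375) and Ptp61F (0.377), with 3, 4 and 5 summits and strongest signals of 123, 137 and 144. Conservative summits at 3 start sites at least 1000 bp apart were found in 4 protein-coding genes, dnc, Moe, Ptpmeg2 and Rtnl1, a comparison chosen after the dnc values were seen. Of 490 genes with 3 or more start sites so spaced, dnc is one of 11 with 8 or more.

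**Figure D3:**
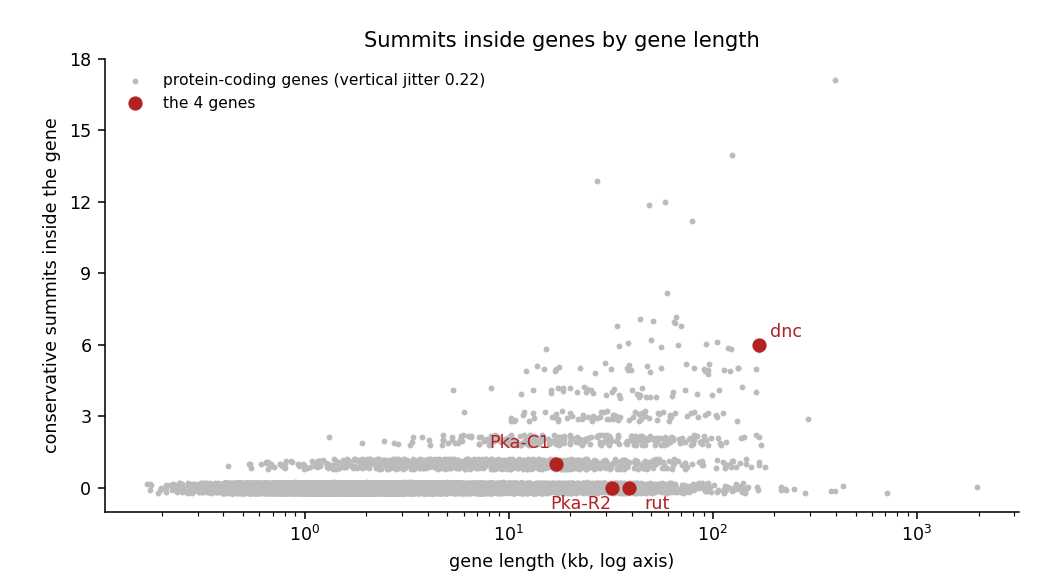
Number of conservative summits inside each protein-coding gene (vertical axis, with a vertical jitter of 0.22 for the grey points) by gene length in kb on a log axis; red points are the 4 genes. dnc, with 6 summits in 167 kb, lies high among genes of its length, while rut and Pka-R2 lie on the line of genes with 0. Each summit is counted, also where peaks overlap.

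The single conservative peak of Pka-C1 was weak and lay in an intron. Pka-C1 (FBgn0000273) is on the minus strand of 2L from 9682315 to 9699297, with 3 transcripts from 1 start site. The peak, at 2L 9693004 to 9693299, had its summit 6145 bp downstream of that start and 3039 bp from the nearest exon. Its pooled signal was 72.1, rank 2225 of 3184, with 30.1% of conservative peaks weaker, and its IDR was 0.00219. Replicate 1 gave 31.7 and replicate 2 gave 37.2 (34.4 ± 3.88, SD, n = 2). Neither replicate's thresholded list held it, with scores of 247 in replicate 1 and 638 in replicate 2, whereas both the conservative and the less strict pooled lists did. At the Pka-C1 start site itself replicate 1 had a ranked peak of 15.4 within 500 bp and replicate 2 had none. The next strongest Pka-C1 candidate of the pooled ranked list, signal 34.1, was met by a ranked peak of replicate 1 (29.5) and by none of replicate 2.

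rut had no peak in any of the 4 thresholded lists. It (FBgn0003301) lies on the minus strand of X from 14787478 to 14826073, with 7 transcripts from 3 start sites. Its strongest candidates in the pooled ranked list were one with the summit 47 bp upstream of the first start site and one in an intron 6312 bp downstream. The first had a pooled signal of 46, with 16.3 in replicate 1 and 26.4 in replicate 2, and an IDR of 0.294. The second had 45.1, with 21.7 in replicate 1 and 26.7 in replicate 2, and an IDR of 0.0318, the lowest of the 38 candidates of rut and above the limit of 0.01. They ranked 5273 and 5612 of 139724 by signal. The nearest conservative peak to rut was 13166 bp outside it, 133 bp upstream of the start of CG32590, with a signal of 119.

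Pka-R2 also had none in the 4 thresholded lists. It (FBgn0022382) spans 9993890 to 10026042 on 2R, minus strand, with 4 transcripts from 1 start site. Its strongest pooled candidate, signal 41.9, lay in coding sequence, had an IDR of 0.338, and was met by a ranked peak of 15 in replicate 2 and by none in replicate 1. The candidate with its lowest IDR, 0.104, lay in an intron 12668 bp downstream of the start, with a pooled signal of 41.1, 20.1 in replicate 1 and 19.3 in replicate 2. Around the start site the replicates had ranked peaks of 14.3 and 12.1. No conservative peak lay within 33975 bp of the gene.

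**Figure D4:**
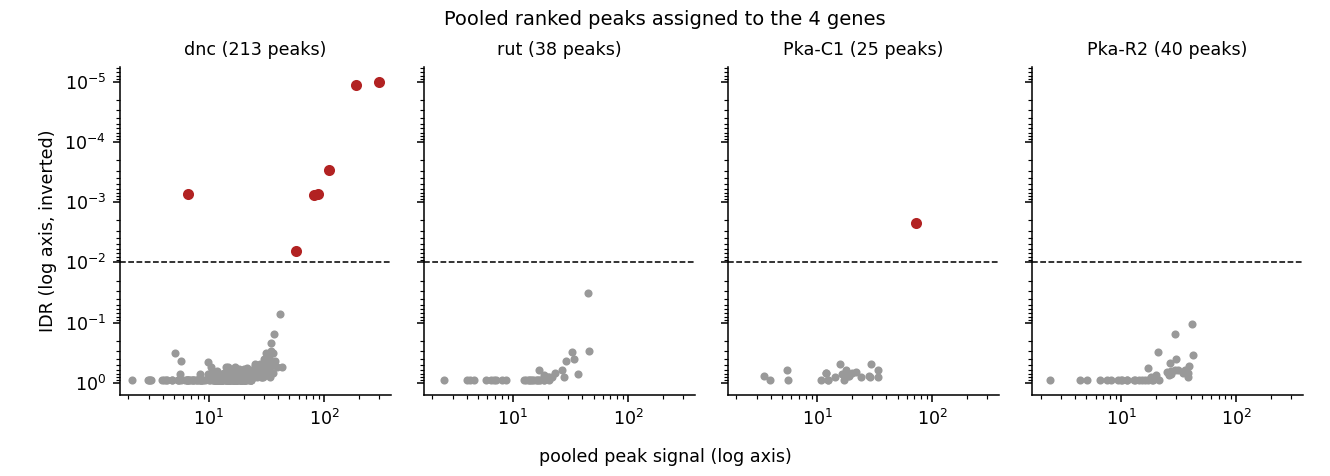
Each candidate peak of the pooled ranked list that belongs to the 4 genes, by pooled signal (log axis) and IDR (log axis, inverted so that the most repeatable peaks are at the top); red points have a score of 830 or more and the dashed line is an IDR of 0.01. dnc has 7 red points of 213 and Pka-C1 has 1 of 25, while all 38 points of rut and all 40 of Pka-R2 lie under the line.

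Over all candidates the 4 genes had similar levels. Peaks of the pooled ranked list had a median signal of 16.9 in dnc, 16.4 in rut, 17 in Pka-C1 and 18.6 in Pka-R2, next to 17.7 over all 139724. Replicate 1's ranked list held 5.62, 6.48, 5.30 and 6.84 summits per 10 kb of dnc, rut, Pka-C1 and Pka-R2, where the 1367 protein-coding genes of 15 kb or longer had a median of 6.74. Replicate 2's held 7.59, 6.48, 6.48 and 8.09, against a median of 8.50. The candidate just outside the conservative list with the lowest IDR in dnc (0.0726) was 214 bp upstream of the start of dnc-RQ, signal 41.0.

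The counts depended on the list. In the less strict pooled list dnc had 5 peaks and Pka-C1 had 1, against 18.1% of protein-coding genes with a peak. The peak past the end of dnc and the weaker peak at dnc-RF were not in that list. Replicate 1's thresholded list held 5 dnc peaks and no other of the 4 genes (12.2% of protein-coding genes), and replicate 2's held 3 (13.5%). The 3 dnc peaks found in all 4 lists were those upstream of dnc-RE, upstream of dnc-RC and others, and in the first long intron. The lists hold no totals of reads, so sequencing depth is unknown and no limit of detection can be given for rut or Pka-R2.

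Conservative peaks were also counted at a wider list of genes of cAMP signalling and learning. Of 82 listed genes, 31 had one (37.8%), among them dnc and Pka-C1. Where a listed gene had several, the values given are of its strongest. The 37.8% is above the 17.4% of all protein-coding genes and below the 46.4% of those 16 to 65 kb long. The listed genes are not matched to that range, as they run from 1.60 to 171 kb. The listed genes were long, with a median of 20.9 kb, where the median protein-coding gene has 2.16 kb and the median gene with a conservative peak 4.99 kb, and the part of length in these counts was not tested. Of the 6 cyclic nucleotide phosphodiesterase genes 5 had a peak, dnc, Pde1c, Pde11, Pde6 and Pde8, and Pde9 had none. Without dnc, which was chosen for its peaks, the count was 4 of 5. At Pde1c, a calmodulin dependent phosphodiesterase gene, the signal was 253, in coding sequence (115 in replicate 1 and 137 in replicate 2). At Pde11 it was 173, in an intron, with 104 in replicate 1 and 69.3 in replicate 2. The summits at Pde6 (signal 119.7, 40.7 and 80.3 in replicates 1 and 2) and Pde8 (84.2, with 35.3 and 47.2) were 281 and 243 bp upstream of a start site. Both of these peaks were in replicate 2's thresholded list but not in replicate 1's. Of the 6 genes, 3 had a peak in replicate 1's thresholded list and 5 in replicate 2's. The median length of the 6 genes was 85.0 kb. Pde8, Pde6 and Pde11, of 23.3, 44.4 and 58.3 kb, fall among the genes 16 to 65 kb long, of which 46.4% had a peak. dnc, Pde1c and Pde9, of 167, 114 and 112 kb, fall among those over 65 kb, of which 55.4% had one.

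Adenylyl cyclases had peaks at 2 of 10 genes (20%), Ac13E and Ac78C, and not at rut. This is near the 17.4% of all protein-coding genes, and the median length of the cyclase genes was 10.7 kb. Ac13E had 3 conservative peaks and Ac78C had 1. The strongest of each was at a promoter, at 148 bp (Ac13E, signal 117) and 111 bp (Ac78C, signal 116) upstream of a start site. In both, this strongest peak was in the thresholded lists of replicate 1 (48.8 at Ac13E and 45.6 at Ac78C) and replicate 2 (67.6 and 70.5). Among kinase subunits and anchors, of median length 18.5 kb, 4 of 8 (50%) had a peak, next to 46.4% of genes 16 to 65 kb long. Beside Pka-C1 these were spoon, an anchoring protein gene (129, at 337 bp upstream), rg, the neurobeachin-type anchor rugose (109, in an intron that overlaps CG15465), and Pka-C3, a catalytic subunit gene (93.6, in an intron). Pka-C2, Pka-R1, Pka-R2 and Akap200 had none.

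The effectors of cAMP and CREB factors had peaks at 4 of 7 genes, the channel genes CngA (172) and Ih (114) and the transcription factor genes CrebB (81.3) and CrebA (54.4). G protein and calmodulin inputs to the cyclase had 1 of 8, at Galphaq (55.2, nearest to its start but inside an intron of Amph), a gene whose product acts mainly on phospholipase C. The amine and peptide receptors with the ligand gene amn had 2 of 17, at amn (102), the neuropeptide gene of the amnesiac memory mutant, and DopEcR (84.0), a dopamine and ecdysteroid receptor gene, and receptors for dopamine, octopamine and serotonin were otherwise listed without one. Other learning and memory genes had 13 of 26, the strongest at Adf1 (672), known from the nalyot mutant, gish (562), a casein kinase gene, Btk (551), a tyrosine kinase gene, and mub (474), an RNA-binding protein gene. These 4 were above the strongest dnc peak. Of the 29 genes other than dnc and Pka-C1 with a peak, 13 had the strongest summit within 500 bp of an own start site, 11 of them upstream, and 17 had it in both replicates' thresholded lists. Shares with a peak were 57.1% of effectors, 12.5% of G protein inputs, 11.8% of receptors with amn and 50% of other learning genes. Beside them stand 17.4% of all protein-coding genes and 46.4% of those 16 to 65 kb long. In the same order the median lengths were 17.8, 8.88, 29.7 and 19.4 kb.

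**Figure D5:**
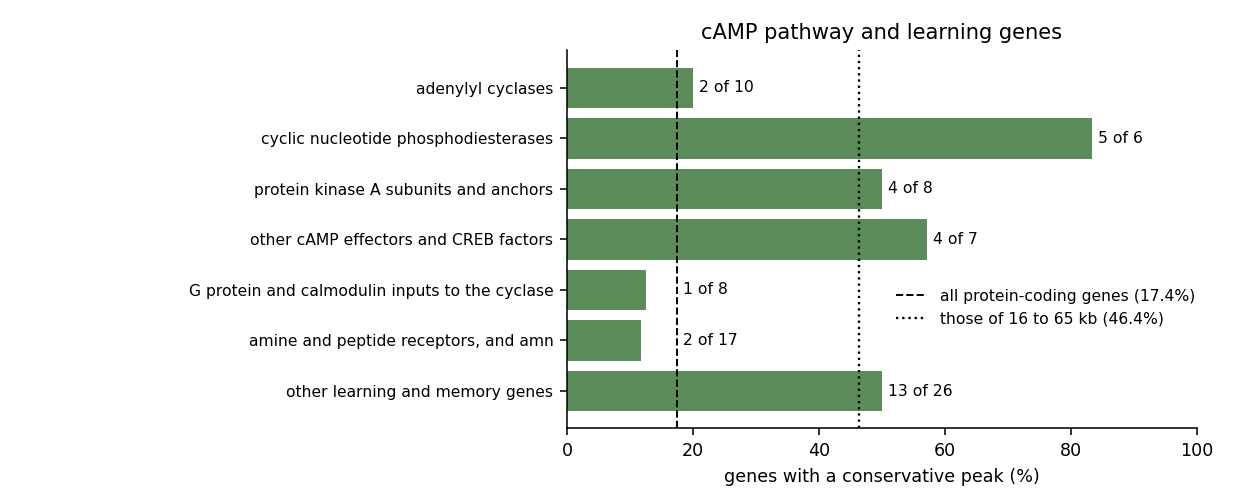
Share of the genes of each list with a conservative peak inside or nearest (bars, %), with the number of genes beside each bar; the dashed line is the 17.4% of all protein-coding genes and the dotted line the 46.4% of those 16 to 65 kb long. Phosphodiesterases stand at 5 of 6 genes, while G protein inputs (1 of 8) and receptors (2 of 17) lie under both lines. Lists differ in gene length, and dnc and Pka-C1 are counted in theirs.

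Motifs were searched on both strands within 50 bp of the summit at the 8 peaks of dnc and Pka-C1. For motifs as rare as most of these are over all conservative peaks, 8 peaks are too few to tell a low count from the list as a whole. TAATTA was in none of the 8, where 11.4% of all conservative summits had it, and it was in none of the 8 whole peaks either. TAATTG was at 1, the Pka-C1 peak, starting 29 bp after the summit, against 11.6% of all. TGACG, the core of the cAMP response element bound by CREB factors, was at none (4.77% of all), and its full form TGACGTCA at none (0.157% of all). The DRE TATCGATA was at none (0.974% of all). GAGAG, the element of GAGA factor, was at 2 dnc peaks (8.57% of all). At the peak upstream of dnc-RC and others it began 50 bp before the summit, at the edge of the window. The other was the weaker peak at dnc-RF, of signal 6.54. The short core TAAT, which TAATTA and TAATTG contain, was at 7 of 8 (79.5% of all) and missing only from the main peak upstream of dnc-RF, as in the sequences above; it was searched for after the values were seen. The GC content of the 8 windows averaged 29.2% ± 7.89 (SD across peaks), against 33.0% ± 9.89 over 3184. It ran from 18.8% at Pka-C1 and 20.8% past the end of dnc to 39.6% in the first long intron of dnc.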

How the data were processed

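ChIP-seq peak lists on dm6 were used, 8 in all: a ranked and a thresholded list of each replicate, and 2 ranked, a conservative and a less strict thresholded list of both replicates pooled. Per the labels, DNA was sonicated to 200 to 800 bp. Aligner and peak caller: not given in the sources used here. Each list holds the signal and the score per peak as the authors deposited them, the score being a scaled IDR. Ranked lists also hold the −log10 of the IDR, as deposited by the authors. What the signal is relative to is not stated, so the replicates' signals are set side by side as deposited, without rescaling. Per the labels, the 2 replicates are separate biosamples of 1 strain.

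From these files, summits (start plus offset) on assembled chromosomes were placed on the Ensembl release 115 annotation. The 17 scaffold peaks of the conservative list were left out. At each pooled peak a replicate was given the top signal of those of its ranked peaks that overlap by 1 bp or more. RefSeq release 6 gave the sequence. Of 87 list entries, 78 matched by symbol, 5 by a RefSeq synonym and 4 not at all, and 1 was a duplicate. The members and lists were chosen with earlier results of these data known. Named genes are the 4 members, up to 4 genes of highest signal per list and the 3 nearest dnc in each likeness. Pka-C2, Pka-R1, Akap200, Pde9, Moe, Ptpmeg2, Rtnl1, Amph, CG15465, CR44886 and the flanking and nested genes were named after their values were seen. Assignment, overlap and motif search were tested on simulated data, with 400 of 400 right in each. No test was made: with 1 group of 2 samples, whose peaks chose the genes, none applies. Python 3.11.15, numpy 2.4.6, pandas 2.3.3 and matplotlib 3.10.9 were used.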

Additional observations from a re-analysis of the deposited data

How the results depend on the processing

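For rut and Pka-R2 all 4 thresholded lists gave no peak. The narrower assignments and the strongest 1592 conservative peaks could only remove peaks, so for these genes they add nothing. The 7 peaks of dnc became 5 in the less strict list, 6 when overlapping peaks were counted once and 3 among the strongest 1592 conservative peaks. With 1 replicate left out, which means the other replicate's own thresholded list, they became 3 to 5, the lower number being without replicate 1. Those lists are shorter, with 1977 peaks (replicate 1) and 2210 peaks (replicate 2) against 3184, and no peaks were called anew. Counting only summits inside the gene gave 6, which leaves out the peak past its end. Using the nearest start site of genes of any biotype also gave 6. Counting overlapping peaks once in every gene, a choice made after seeing the data, left 5 summits inside dnc, against 6, and put 23 genes above it, against 14. The 1 peak of Pka-C1 became 0 without replicate 1, without replicate 2 (both 0) and among the strongest 1592. The 4 dnc peaks within 500 bp of a start site became 1 within 250 bp, and 2 to 3 with 1 replicate left out. All 8 peaks overlapped ranked peaks of both replicates, against 3 with the thresholded lists. TGACG, at 0 of the 8 within 50 bp of the summit, was in 1 whole peak. The 31 pathway genes became 20 without replicate 2 and 26 without replicate 1. Over all protein-coding genes the share with a peak also fell, from 17.4% to 12.2% without replicate 2 and 13.5% without replicate 1. The cause of these shifts was not tested. No paired analysis was possible because the samples form 1 group.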

Other observations

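None of the 8 protein-coding genes nested whole inside dnc was assigned a conservative peak, next to 17.4% of all protein-coding genes. With so few genes, none at all cannot be told apart from that share. The 8 genes include the salivary glue protein gene Sgs4, its neighbours Pig1, ng1, ng2, ng3 and ng4, and CG14265 and CG10793. A pair of conservative peaks flanked dnc without belonging to it. One, at X 3162450 to 3162596, lay in an intron of N, the Notch receptor gene, 13902 bp before the start of dnc, signal 238, where replicate 1 gave 118 and replicate 2 gave 125. The other, at X 3355189 to 3355484, was intergenic, 11570 bp past the end of dnc and 17822 bp upstream of Myc, signal 116, where replicate 1 gave 56.7 and replicate 2 gave 65.3. The nearest conservative peak to Pka-C1 outside it was 21610 bp away, signal 74.2, and that nearest to Pka-R2 was 163 bp upstream of the start of Pal1, signal 413.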
